A study of Bos taurus with 40 samples.

Results

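The matrix metalloproteinases (MMPs) and the tissue inhibitors of metalloproteinases (TIMPs) were followed in 4 tissues of male and female Korean cattle. The genes were taken by their symbols. Of the 9 symbols asked for, 8 had counts among the 13570 genes of the tables: MMP2, MMP9, MMP12, MMP14, MMP19, TIMP2, TIMP3 and TIMP4. MMP11 was not analysed here. All 8 were among the 13148 genes with a read in any of the 40 libraries, which were the genes tested. In the RefSeq gene table (assembly ARS-UCD2.0), TIMP3 overlaps SYN3, TIMP4 overlaps SYN2, TIMP2 overlaps CEP295NL, MMP14 overlaps RBM23 and MMP2 overlaps a tRNA gene. Whether the counting used strand is not given, so reads shared by such a pair cannot be told apart.

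The study sequenced polyadenylated RNA from the liver, the abdominal fat, the longissimus dorsi muscle (a long muscle of the back) and the pituitary-gland of 5 cows and 5 bulls, to find genes that differ between the sexes. Every animal was over 22 months old at slaughter, none is labelled with a treatment, and by the labels each animal gave 1 library per tissue, so that each sex and tissue had 5 libraries. Each library was made from a whole piece of tissue. Fewer cells of a type and less RNA per cell therefore cannot be told apart in any value given here.

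MMPs are zinc enzymes that cut the proteins of the extracellular matrix. Most are made as inactive precursors and are activated when a propeptide is removed. MMP2 and MMP9 are the gelatinases, which cut denatured collagen and basement membrane collagen. MMP12 is the macrophage elastase. MMP14 is anchored in the cell membrane, cuts fibrillar collagen and activates the MMP2 precursor, and MMP19 cuts basement membrane proteins. TIMPs bind active MMPs and block them. TIMP2 is also needed for MMP14 to activate MMP2, TIMP3 is held in the matrix and also inhibits ADAM family proteases, and TIMP4 is known from heart and fat. In adipose tissue and muscle these enzymes are best known for remodelling of the matrix during growth and repair.

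Levels are read counts scaled to a common library size (CPM), scaled with the trimmed mean of M values (TMM) on 1 scale over the 40 libraries. They are not divided by gene length, so they compare libraries for a gene and not genes with each other. The libraries held 5173092 to 19165864 reads on genes, with a median of 10005607, and 3 reads were worth 0.132 to 0.793 CPM. Values at or under 3 reads are treated as being at the counting floor, which covers counting error only.

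The tissue markers followed the labels. The summed liver markers, for example, stood at 113340 to 283520 CPM in liver and at no more than 473 CPM elsewhere. The library labelled as the liver of bull 3 went against its label: it held 0 reads of the Y-linked genes DDX3Y, USP9Y and ZFY and 8694 reads of XIST, the RNA of the silenced X chromosome. Of the 180 pairs of libraries of the same tissue, it and the liver of cow 4 were the closest, with a chi-square per degree of freedom of 15.9 against 24.1 for the next pair, which is above sampling noise. Both were kept as separate samples. The fat library of bull 5 stood apart as well. Its mean correlation with the other fat libraries was 0.906, the lowest in fat, and it held 2 reads of DDX3Y, 23 of USP9Y and 3 of ZFY. The fat library of bull 2 had a summed neutrophil marker level of 287 CPM, and that of bull 5 reached 560 CPM, against 36.9 to 106 CPM in the other 8 fat libraries. The values these 3 libraries change most are also given without them.

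Abdominal fat held the highest mean level of 6 of the 8 genes. For MMP2, TIMP2, TIMP3 and TIMP4 the order of the means was fat, muscle, pituitary-gland, liver. For MMP9 and MMP14 it was fat, liver, muscle, pituitary-gland. For MMP9 no pair of tissues other than fat was called, and most libraries outside fat were at the counting floor. The order of muscle and pituitary-gland for TIMP2 and MMP14 depends on the TMM scaling, as given below. MMP19 had its highest mean in liver, and MMP12 had its highest mean in muscle, where its level came from the bulls. For MMP12 fat and muscle could not be ordered, as given below.

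**Figure D1:**
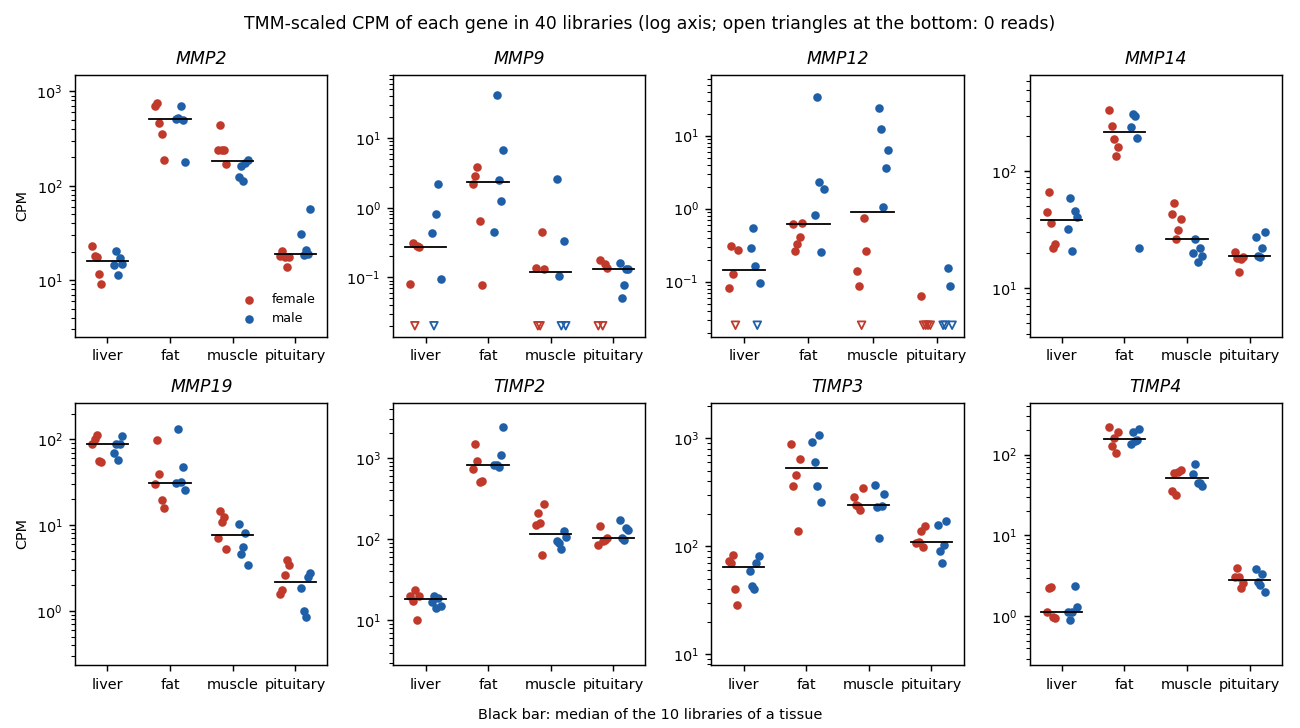
TMM-scaled CPM (log axis) of the 8 genes in each of the 40 libraries, by tissue, with cows in red, bulls in blue and a black bar at the median of the 10 libraries of a tissue. Open triangles mark libraries with 0 reads. TIMP2 and TIMP4 in fat lie above every library of the other tissues, while MMP9 is near the floor in most libraries outside fat and MMP12 in liver, pituitary and the muscle of cows.

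MMP2 was a gene of fat and muscle. In fat the cows had 706, 754, 466, 357 and 188 CPM and the bulls 509, 528, 708, 500 and 179 CPM, in the order of animals 1 to 5. The lowest fat libraries were those of cow 5 and bull 5, and the sexes overlapped. In muscle the cows had 242, 439, 241, 239 and 171 CPM and the bulls 124, 162, 113, 176 and 187 CPM. Muscle values of the bulls lay below those of 4 cows, with cow 5 inside their range. With library sizes alone in place of TMM, cow 4, at 124 CPM, also fell below bull 4, at 138 CPM. The level of MMP2 was far lower in the pituitary-gland, at 13.8 to 56.5 CPM with a median of 18.8, and in liver, at 9.02 to 22.8 CPM with a median of 16.1. In the pituitary-gland, bull 5 held the top value and bull 1, at 30.7 CPM, the next.

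MMP14, the membrane enzyme that activates MMP2, was also highest in fat. Its fat levels were 338, 245, 191, 136 and 163 CPM in the cows and 240, 312, 295, 194 and 22.2 CPM in the bulls. The other libraries lay at 136 CPM or more, and bull 5 alone fell into the range of the other tissues. Liver held 20.8 to 66.5 CPM (median 38.4) and the pituitary-gland 13.7 to 29.9 CPM (median 18.7). In muscle MMP14 had 42.8, 54.0, 26.4, 31.3 and 38.9 CPM in the cows and 20.1, 26.2, 16.7, 22.0 and 18.7 CPM in the bulls. Every cow was above every bull, though cow 3 and bull 2 all but met.

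MMP9, the other gelatinase, was low. In fat its levels were 2.16, 2.86, 3.85, 0.638 and 0.0787 CPM in the cows and 0.452, 40.9, 2.47, 1.26 and 6.72 CPM in the bulls. Bull 2, with 738 reads, stood far above the next library, bull 5, and the remaining bulls overlapped the cows. Outside fat, 3 libraries held over 3 reads: the livers of bull 4 (28 reads, 2.18 CPM) and bull 3 (5 reads, 0.806 CPM) and the muscle of bull 1 (15 reads, 2.61 CPM). All 10 pituitary-gland libraries held 3 reads or fewer.

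MMP12, the macrophage elastase, showed the clearest difference between the sexes. In muscle the bulls had 24.1, 12.2, 1.06, 3.64 and 6.36 CPM, from 139, 116, 4, 22 and 46 reads. The cows had 0.138, 0.0865, 0, 0.739 and 0.263 CPM, and only cow 4, with 5 reads, was over the floor. No bull overlapped a cow. In fat the bulls had 0.814, 34.3, 2.29, 0.252 and 1.86 CPM and the cows 0.618, 0.260, 0.328, 0.406 and 0.630 CPM. Bull 2 stood far above all others there, bulls 1, 3 and 5 lay above every cow, and bull 4 lay below every cow. Liver reached at most 3 reads and the pituitary-gland at most 2 reads in any library.

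MMP19 was the gene of the 8 with its highest level in liver. Liver held 53.9 to 113 CPM with a median of 87.6. Fat held 29.9, 98.1, 39.4, 19.7 and 15.8 CPM in the cows and 31.0, 133, 31.8, 48.0 and 25.4 CPM in the bulls. With TMM scaling, cow 2 and bull 2 were in the range of liver or above it, and the other 8 fat libraries were below every liver. This did not hold with library sizes alone. The lowest liver, that of cow 5, was then at 35.7 CPM, and the fat of bull 4, for example, was at 62.1 CPM. Muscle was at 3.45 to 14.5 CPM (median 7.64) and the pituitary-gland at 0.840 to 3.90 CPM (median 2.19).

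With TMM scaling, the 3 inhibitors shared their order of tissues but not their spread. TIMP2 held 506 to 2368 CPM in fat (median 813), 63.4 to 270 CPM in muscle (median 116), 83.4 to 170 CPM in the pituitary-gland (median 103) and 10.1 to 23.3 CPM in liver (median 18.1). Its top value was the fat of bull 5, the library in which MMP14 and MMP2 were lowest among the bulls. With that scaling TIMP3 had the smallest ratio of highest to lowest mean of the 8 genes, at 9.73 for fat over liver. MMP14 was close, at 10.45 for fat over pituitary-gland, and the order of these genes depends on the scaling. TIMP3 held 137 to 1066 CPM in fat (median 532), 120 to 368 CPM in muscle (median 240), 69.5 to 173 CPM in the pituitary-gland (median 109) and 28.3 to 82.2 CPM in liver (median 64.0). TIMP4 was high in fat, at 106 to 218 CPM (median 156), and in muscle, at 32.0 to 75.8 CPM (median 51.4). The pituitary-gland had 2.02 to 4.0 CPM and liver 0.895 to 2.34 CPM, and no fat library overlapped a library of another tissue.

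Tissue pairs were tested in a model with sex and tissue over the 40 libraries, and a gene was called at an FDR adjusted p under 0.05 with a fold of at least 2. Fat against pituitary-gland called all 8 genes, each higher in fat, where 47.2% of all genes tested were called. Fat against muscle called 7 of 8, all higher in fat, against 43.3% of all genes. Liver against fat called 7 of 8, all lower in liver, against 47.6%. Liver against muscle called 6 of 8 (46.5%), of which MMP19 alone was higher in liver. Muscle against pituitary-gland called 5 of 8, all higher in muscle (48.1%). Liver against pituitary-gland called 4 of 8 (48.4%), near the background. The median log2 fold change of the 8 genes was 4.41 for fat over pituitary-gland, 2.11 for fat over muscle and -3.43 for liver over fat, beside -0.02, 0.13 and -0.13 over all genes. With MMP9 and MMP12 set at the level of 3 reads in tissues where no library held more, the first was 4.40 and the last -3.54. Genes set in this way entered as log2 ratios of a mean to that level, and the others as fitted values. The measures are unlike, so these medians do not show what the floor alone does.

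Between liver and fat the largest log2 fold change belonged to TIMP4, at -6.77 ± 0.220 (SE of the fit, n = 10 libraries a tissue) for liver over fat, with an adjusted p of 1.95e-168. TIMP2 followed at -5.83 ± 0.247 (-5.48 without the fat library of bull 5) and MMP2 at -4.96 ± 0.262. MMP14 was lower in liver than in fat by a log2 fold change of -2.45 ± 0.274, and of -2.48 without the fat library of bull 5. TIMP3 was higher in fat than in muscle by 1.13 ± 0.259, and by 0.98, under the 2-fold limit, without bull 4. MMP14 did not pass between liver and muscle (0.41 ± 0.276, adjusted p = 0.187) or between muscle and pituitary-gland (0.52 ± 0.276, adjusted p = 0.0932). TIMP2 likewise did not pass between muscle and pituitary-gland, at 0.21 ± 0.244 with an adjusted p of 0.452.

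MMP19 was higher in liver than in the pituitary-gland by 5.22 ± 0.316 and than in muscle by 3.34 ± 0.312 on the log2 scale. Liver over fat gave 0.79 ± 0.307 for MMP19 with an adjusted p of 0.0171, under the 2-fold limit. The smallest log2 fold change for this pair over all alternatives was 0.08. Without the fat library of bull 2 the log2 fold change was 1.17 (adjusted p = 8.62e-05), over the 2-fold limit. MMP9 was higher in fat than in muscle by 3.91 ± 0.777, by 2.90 without that library, and by 5.13 without bull 1, whose muscle held 15 reads of MMP9. It was also called higher in fat than in the pituitary-gland (adjusted p = 7.57e-09), where no library held over 3 reads. Its fat mean was 31.1 times the level of 3 reads there, and 11.5 times without bull 2. MMP9 was not called in the pairs without fat. Its adjusted p was 0.753 for liver against muscle, 0.0536 for liver against pituitary-gland and 0.130 for muscle against pituitary-gland. For liver against pituitary-gland 9 of 20 alternatives called it.

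For MMP12 fat and muscle could not be ordered. The log2 fold change of fat over muscle was 0.01 ± 0.723 (adjusted p = 0.991), and -1.62 (adjusted p = 0.0607) without the fat library of bull 2. MMP12 was called higher in fat (adjusted p = 1.73e-09) and in muscle (adjusted p = 2.93e-09) than in the pituitary-gland, where no library held over 2 reads. Set against the level of 3 reads per pituitary-gland library, its mean was 21.2 times higher in fat, and 4.2 times without bull 2. In muscle it was 24.6 times higher, and 13.8 times without bull 1. It was among the 4 calls of liver against pituitary-gland, where every library was at or under 3 reads, so no fold is given, and the quasi-likelihood test did not call it (adjusted p = 0.0567). The other calls of that pair were MMP19, TIMP2 at -2.72 ± 0.247 and TIMP3 at -1.04 ± 0.260. TIMP3 lay at the 2-fold limit and was at -0.98 without the liver library of bull 3. TIMP4 (-0.97 ± 0.230), MMP14 (0.93 ± 0.275) and MMP2 (-0.57 ± 0.263, adjusted p = 0.0481) passed on adjusted p but not on fold. MMP2 did not pass on adjusted p with the quasi-likelihood test (0.0546).

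**Figure D2:**
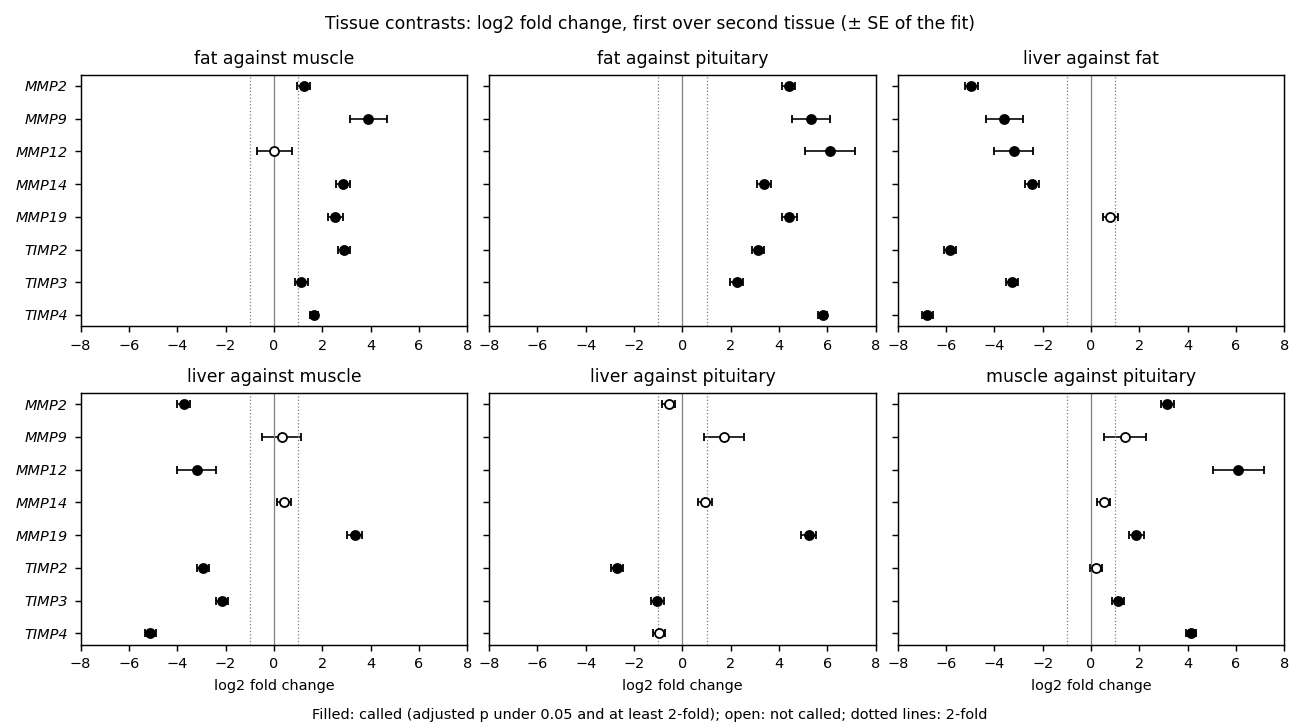
Log2 fold changes (x axis, first tissue over second) of the 8 genes in the 6 tissue pairs, with bars for the SE of the fit over 40 libraries. Filled points were called, open points were not, and dotted lines mark 2-fold. All 8 points lie to the right of 2-fold for fat against pituitary. MMP12 is left out of liver against pituitary, where no library held over 3 reads, and the size of the MMP9 and MMP12 points against pituitary depends on the prior count for the same reason.

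The scaling moves these contrasts. With library sizes alone in place of TMM, the median of all genes shifted from -0.13 to -0.82 for liver over fat and from -0.03 to -0.89 for muscle over pituitary-gland. Under that scaling the log2 fold change of TIMP3 for muscle over pituitary-gland went from 1.11 to 0.17 and that of MMP19 from 1.88 to 0.98, so that 3 of 8 genes were called there, below the 56.4% of all genes called under that scaling. No call among the 8 genes changed direction. TIMP2 and MMP14, not called for that pair, went from 0.21 to -0.68 and from 0.52 to -0.40. The order of muscle and pituitary-gland for TIMP2 and MMP14 thus depends on the scaling.

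The balance of enzyme and inhibitor can be followed within a library as a ratio of read counts, which needs no scaling between libraries. It is not a ratio of molecules, since the transcripts differ in length. The MMP2 to TIMP2 ratio had a median of 1.56 in muscle (0.635 to 3.77), 0.952 in liver (0.452 to 1.14), 0.569 in fat (0.0757 to 0.961) and 0.181 in the pituitary-gland (0.139 to 0.442). Fat and liver, rich and poor in both genes, thus overlapped in this ratio, while all 10 pituitary-gland libraries lay below every liver and muscle library. The MMP14 to TIMP2 ratio was highest in liver, with a median of 2.21 (1.20 to 3.88), and lower in fat (0.282), muscle (0.216) and pituitary-gland (0.180). Every liver was above every library of the other tissues. The MMP14 to MMP2 ratio separated liver (median 2.41, from 1.82 up) and muscle (median 0.139, up to 0.227) without overlap. In the fat of bull 5 the MMP2 to TIMP2 ratio was 0.0757 and the MMP14 to TIMP2 ratio 0.00937, the lowest of the 40 libraries for both.

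**Figure D3:**
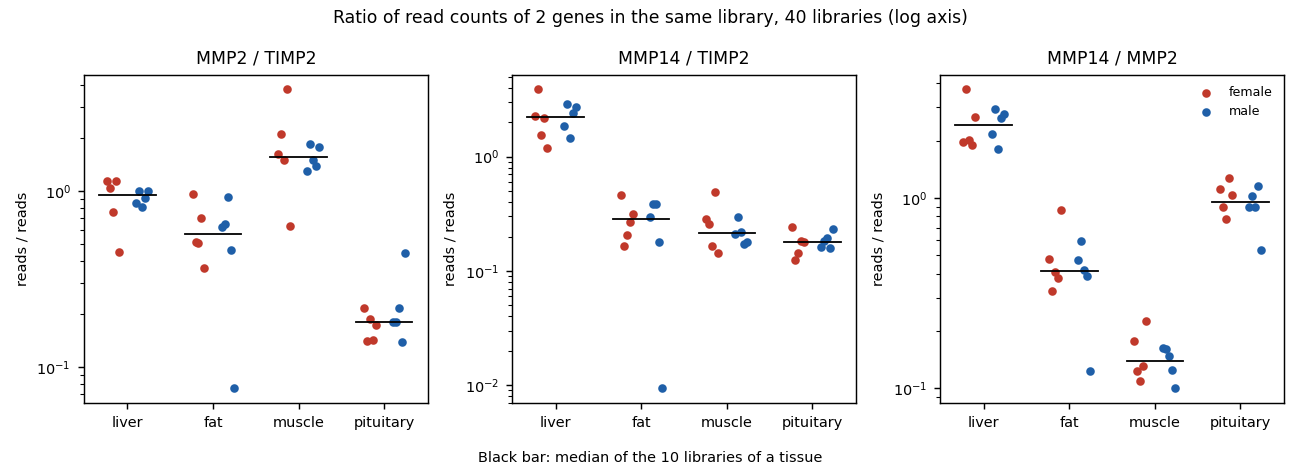
Ratio of the read counts of 2 genes in the same library (log axis) for each of the 40 libraries, with cows in red, bulls in blue and the median of each tissue as a black bar. MMP14 over TIMP2 is at 1.20 or more in all 10 livers and under 0.5 in all other libraries, and the fat of bull 5 is the lowest point of the first 2 panels.

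For the sex comparison within each tissue, the 5 bulls were set against the 5 cows, and a gene was called at an adjusted p under 0.05. In muscle 1 of the 8 genes was called, where 0.517% of all genes were. MMP12 was male-biased, with a log2 fold change (male over female) of 5.25 ± 0.826 and an adjusted p of 2.51e-06. It was higher in 5 of 5 bulls than in every cow, though bull 3 (4 reads) and cow 4 (5 reads) were both near the floor. The adjusted p was 0.0309 with the quasi-likelihood test and 8.01e-08 with DESeq2, and the log2 fold change lay between 4.56 and 6.14 over all alternatives in which the gene was tested, the first without bull 1 and the second without cow 4. A filter on low counts within muscle removed MMP12 before testing.

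The sexes did not overlap for 2 of the 8 genes in muscle, MMP12 and MMP14, against 1.65% of all genes. For MMP14 this held with TMM scaling but not with library sizes alone, where cow 4 fell below bull 2 and bull 4. MMP14 was lower in the bulls, at -0.89 ± 0.275, but did not pass over all genes (adjusted p = 0.103). MMP2 was at -0.80 ± 0.305 (adjusted p = 0.243) and TIMP2 at -0.78 ± 0.340 (adjusted p = 0.342). TIMP2 in muscle had 150, 209, 160, 63.4 and 270 CPM in the cows and 95.3, 88.4, 75.6, 127 and 105 CPM in the bulls, so cow 4 lay below all bulls and the other 4 cows above them. Without cow 4, TIMP2 (-0.98, adjusted p = 0.0131) and MMP14 (-0.95, adjusted p = 0.0223) passed, and 3 of 8 genes were called, where the share over all genes was also higher, at 4.21% (553 genes against 68 with all animals). MMP19 was at -0.65 ± 0.395, and TIMP3 and TIMP4 at -0.07 and 0.07. MMP12 thus differed in sign from MMP2, MMP14 and TIMP2 in the same libraries.

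Markers of macrophages, the cells for which MMP12 is named, had the opposite sign in these muscles. All 9 macrophage markers with counts had a negative log2 fold change, with a median of -0.97 against -0.04 over all genes, and CD14, a receptor for bacterial lipopolysaccharide, was called (-1.40 ± 0.344, adjusted p = 0.0233), though not by the quasi-likelihood test. The summed marker level was 104 to 350 CPM in the bulls and 307 to 565 CPM in the cows, and no marker had a mean of 0 in either sex. Muscle of bull 1, with the most MMP12, had a sum of 236 CPM. The 6 fibroblast markers and the 13 matrix substrates with counts share COL1A1, COL3A1, DCN and LUM. All were negative too, with medians of -0.74 and -0.53. None was called by edgeR or DESeq2, with 2 of the 6 and 4 of the 13 at an unadjusted p under 0.05. The part of these markers in the values of MMP2, MMP14, TIMP2 and MMP12 was not tested.

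**Figure D4:**
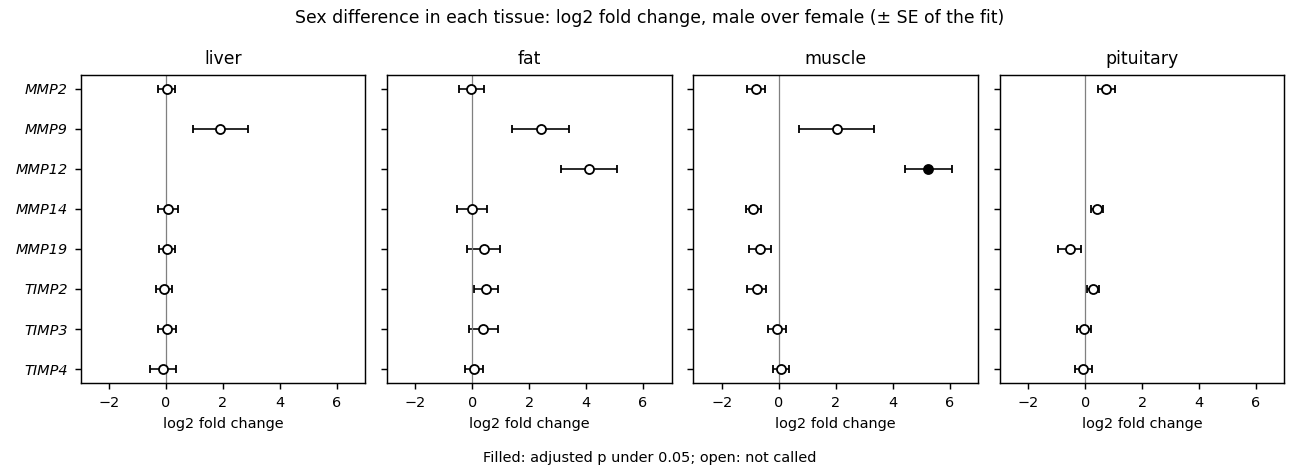
Log2 fold changes (x axis, male over female) of the 8 genes in each tissue, with bars for the SE of the fit over 5 bulls and 5 cows. The filled point, MMP12 in muscle at 5.25, is the only one called. MMP9 in pituitary and MMP12 in liver and pituitary are left out because no library there held over 3 reads.

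In fat 0 of the 8 genes were called (0.114% of all genes). At an unadjusted p under 0.05 there were 2, MMP9 and MMP12, and 0 were called by the quasi-likelihood test or DESeq2, which gave MMP12 no adjusted p. MMP12 had a log2 fold change of 4.09 ± 0.984 with an adjusted p of 0.133. Without bull 4 it was 4.41 (adjusted p = 0.0217), without bull 5 it was 4.35 (adjusted p = 0.0448), and without bull 2 it was 1.51 (adjusted p = 0.809). MMP9 was at 2.40 ± 1.01 (adjusted p = 0.632) and at 0.49 (adjusted p = 0.971) without bull 2. The other 6 genes lay between -0.03 and 0.48, where TIMP2 was at 0.06 without bull 5. MMP19 was at 0.39 ± 0.572 and at -0.25 without bull 2. The sexes overlapped for all 8 genes in fat, and for 1.29% of all genes they did not.

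The fat library of bull 2 held the highest MMP9, MMP12 and MMP19 of any fat library at once. Its summed macrophage marker level was 1866 CPM. That of bull 3 was 1822 CPM and that of cow 2 was 2298 CPM, against 886 to 1212 CPM in the other 7. Cow 2 had the next highest MMP19 but an MMP12 of 0.260 CPM, and bull 5, with the highest neutrophil sum, had an MMP19 of 25.4 CPM. The part of these cells in the values of bull 2 was not tested.

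**Figure D5:**
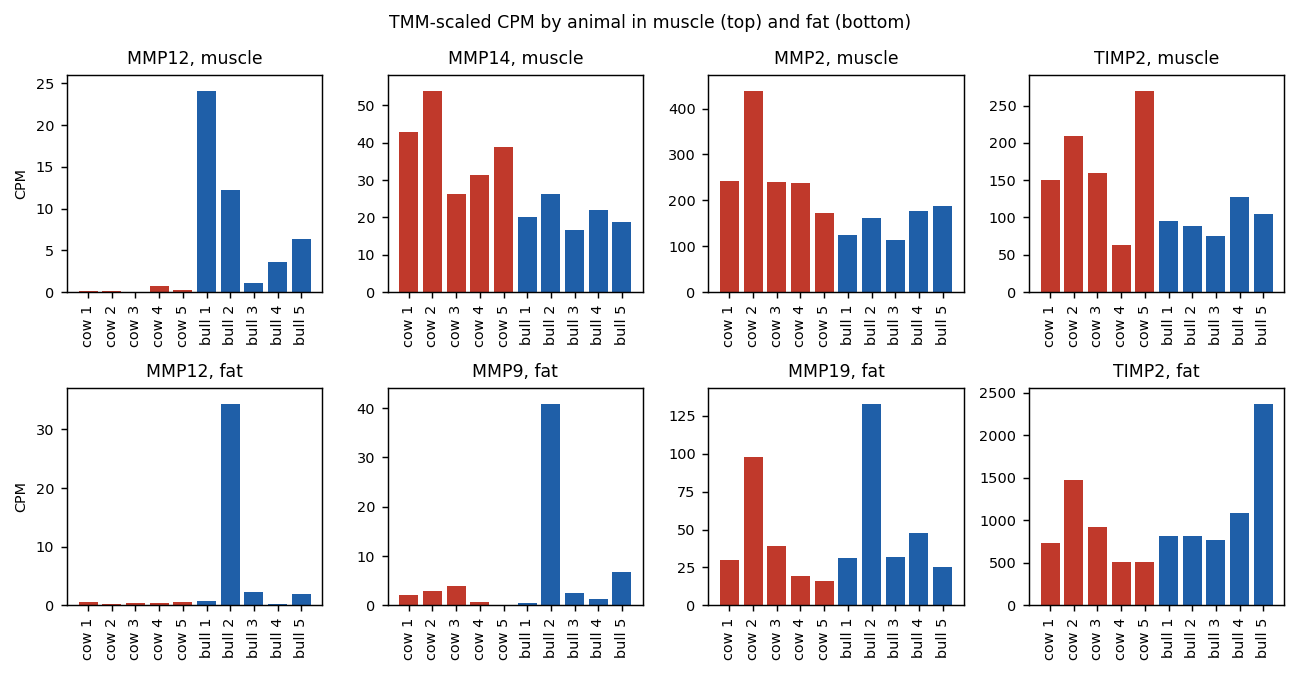
TMM-scaled CPM (linear axis from 0) by animal, 1 bar per library, with cows in red and bulls in blue, for 4 genes in muscle (top) and 4 in fat (bottom). On this scale, all 5 bulls exceed all cows for MMP12 in muscle and all cows exceed all bulls for MMP14. In fat bull 2 carries the top MMP12, MMP9 and MMP19 and bull 5 the top TIMP2.

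In liver 0 of the 8 genes were called (0.175% of all genes), with 1 at an unadjusted p under 0.05, MMP9, and 0 by the quasi-likelihood test or DESeq2. MMP9 was at 1.91 ± 0.965 (adjusted p = 0.624), with 28 reads in bull 4 and 5 in bull 3. It was 0.80 without bull 4 and 1.85 without bull 3. The 6 genes over the floor, MMP9 aside, lay between -0.09 and 0.08. No gene of the 8 separated the sexes in liver (0.548% of all genes). Without bull 3, whose liver library went against its label, 0 of 8 were still called, where the calls over all genes went from 23 to 61 (0.464%), beside 187 without cow 4. MMP14 was then at 0.23, the other 5 genes over the floor lay between -0.05 and 0.13, and 0 of the 8 separated the sexes (1.33% of all genes). In the pituitary-gland 0 of 8 were called (0.745%), with 1 at an unadjusted p under 0.05, MMP2, and 0 by the quasi-likelihood test or DESeq2. MMP2 was at 0.73 ± 0.299 (adjusted p = 0.351), and at 0.35 in the alternative with the smallest value. The sexes overlapped for all 8 genes there (1.34% of all genes did not).

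With sex and tissue in 1 model over the 40 libraries, 1 of the 8 genes was called for sex, against 1.69% of all genes. It was MMP12 again, at 3.25 ± 0.618 with an adjusted p of 0.00114. Its muscle libraries are shared with the muscle comparison, so the 2 results are not separate. Without the fat library of bull 2 it was 2.30 (adjusted p = 0.0190). The 4 tissues come from the same animals. With limma and the animal as a block, MMP12 was at 1.78 with an adjusted p of 0.348 and was not called. That fit changed the method as well as adding the block, so the part of the block alone was not tested. MMP9 was at 1.75 ± 0.570 (adjusted p = 0.0789) and at 1.16 (adjusted p = 0.254) without the fat library of bull 2. The remaining 6 genes lay between -0.18 and 0.07.

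Whether the sex difference itself varied between tissues was asked with an interaction of sex and tissue. It called 0 of the 8 genes, against 0.335% of all genes, with 3 at an unadjusted p under 0.05 (MMP2, MMP12 and TIMP2) and 0 by the quasi-likelihood test or DESeq2. MMP12 had an adjusted p of 0.309, and of 0.0674 without the fat library of bull 2. A difference between muscle and the other tissues in the male bias of MMP12 was therefore not shown.

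Other genes of the system were read from lists of symbols. Of a list of 18 genes, the other MMPs with TIMP1, 10 had counts, and 0 of them were called for sex in any tissue, over the 4 tissues or for the interaction by edgeR. At an unadjusted p under 0.05 there were 0 in liver, 1 in fat (MMP15), 1 in muscle (MMP23B) and 2 in the pituitary-gland (MMP15 and MMP23B), of which DESeq2 called MMP23B (adjusted p = 0.0428). TIMP1, the inhibitor induced in inflammation, was highest in fat, at 27.2 to 394 CPM, and was called higher there than in each other tissue. MMP15, a membrane enzyme like MMP14, was also highest in fat, at 55.0 to 208 CPM, and MMP23B reached 48.6 CPM there. MMP7, matrilysin, exceeded 3 reads in liver alone, at 1.12 to 12.6 CPM. MMP1, MMP3 and MMP20 never passed 4 reads in any library, and MMP13 reached 6 reads in the pituitary-gland.

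Among 15 genes that activate or restrain MMPs, 13 were called lower in liver than in fat and 2 higher, against 47.6% of all genes called. PLG, which encodes plasminogen, a precursor made by liver, was higher in liver by 11.9 ± 0.364 on the log2 scale, and FURIN, a convertase that activates MMP14, by 2.03 ± 0.277. RECK, a membrane-anchored MMP inhibitor, was lower in liver, at -1.92 ± 0.303. For sex 1 of the 15 was called, CD44, a hyaluronan receptor to which MMP9 can dock. It was called over the 4 tissues (0.62 ± 0.175, adjusted p = 0.0359), where 1.69% of all genes were. The quasi-likelihood test (adjusted p = 0.0715) and the limma fit with the animal as a block (adjusted p = 0.322) did not call it.

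All 13 matrix substrates with counts were called higher in fat than in the pituitary-gland, with a median of 4.25, against 47.2% of all genes. For muscle against pituitary-gland 12 of 13 were called, each higher in muscle, against 48.1% of all genes. COL1A1, a chain of type I collagen, was higher in fat by 5.41 ± 0.397. Fibroblast markers were called higher in fat than in the pituitary-gland in 6 of 6 cases. COL1A1, COL3A1, DCN and LUM are in both lists, so the counts are not separate results. COL1A1 was the 1 substrate called for sex, in the pituitary-gland (1.39 ± 0.366, adjusted p = 0.0345), though not by the quasi-likelihood test. Of 14 ADAM and ADAMTS proteases, 9 were called lower and 3 higher in liver than in fat, against 47.6% of all genes called. For sex 0 of these 14 were called by edgeR or DESeq2, with 1 in liver and 1 in muscle at an unadjusted p under 0.05.

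Which genes varied with the members from animal to animal was described by Pearson's r of log2(CPM + 1) over the 40 libraries after the tissue means were taken out. The libraries share animals and scaling, so r is a description. Among the 8 genes the closest pair was MMP2 and MMP14, at 0.758, and the next was MMP9 and MMP12, at 0.637, which was 0.381 without the fat library of bull 2. TIMP2 was not close to the enzymes it binds, at 0.232 with MMP2 and -0.04 with MMP14. Among 10945 other genes, those nearest to MMP2 were GPR133 (0.823), SCARA5 (0.782) and FZD1 (0.775). SCARA5 was also near MMP14 (0.839), after LHFP (0.848) and before CYTH4 (0.830). MMP9 lay nearest to TREM2 (0.661), a receptor of myeloid cells, and MMP12 to NGLY1 (0.640). Without the fat library of bull 2 these were 0.544 and 0.655. MMP19 was nearest to ITGB2 (0.720), the beta chain of the leukocyte integrins. Without the fat library of bull 2 ITGB2 was at 0.627, below SASH3 at 0.689. TIMP2 was nearest to ANXA1 (0.775), TIMP3 to ARHGAP31 (0.760) and TIMP4 to PSAP (0.637).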

How the data were processed

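Polyadenylated RNA of 40 tissue samples was sequenced in pairs. The deposited files hold whole-number read counts per gene, which the authors made from reads cleaned with Trimmomatic, mapped to bosTau7 with Bowtie2 in TopHat2 and counted with HTSeq; the counts were not normalized. Whether the counting used strand is not given in the sources used here. A line with no gene name (0.114 to 2.69% of reads) was left out.

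The 13148 genes with a read in any library were tested with the likelihood ratio test of edgeR 4.0.16 in R 4.3.3, with TMM factors: sex within each tissue (10 libraries), and sex and tissue or their interaction (40 libraries). P-values were adjusted by Benjamini-Hochberg over all of them. Fitted log2 fold changes used a prior count of 0.125. This test follows the study's methods in place of the quasi-likelihood test, which was run as an alternative, as were DESeq2 1.42.0, limma 3.58.1 with the animal as a block, RLE factors, library sizes alone, a filter on low counts, and leaving out each animal or single libraries. The limma block was used for sex and the interaction. For the tissue pairs the block was an edgeR fit with the animal as a term in place of sex. Leaving out the fat library of bull 2 was chosen after seeing the data. On simulated counts for muscle, 94.0% of 200 genes changed 4-fold were recovered and 13.4% of the calls were unchanged genes, against 87.5% and 4.89% with the quasi-likelihood test.

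The animal number in the titles ties the 4 tissues of an animal together. Deviations from the group means correlated by 0.0264 to 0.256 on average between tissues of the same animal. Cows and bulls are not paired. The members, the gene lists and the tests were chosen with earlier results of these data known. Genes outside the members were named as the 3 nearest by correlation to a member, or as genes of the lists that a result turned on.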

Additional observations from a re-analysis of the deposited data

Results flagged for a closer look

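In 7 of the 56 groups of 5 libraries tested, the highest library lay further from its neighbour than Dixon's 95% limit allows. That limit assumes normally distributed values, and the groups share libraries. The count is thus a description and was not set against a rate expected by chance. In fat, bull 2 accounted for 3 of them: MMP9 at 40.86 CPM against 0.4524 to 6.724 in the other bulls, MMP12 at 34.33 CPM against 0.2524 to 2.288, and MMP19 at 132.9 CPM against 25.35 to 48.05. MMP19 in the fat of cow 2 was at 98.07 CPM against 15.82 to 39.41 in the other cows. TIMP2 in the fat of bull 5 was at 2368 CPM against 767.2 to 1088 in the other bulls. In muscle, MMP2 of cow 2 was at 439.1 CPM against 171.4 to 241.8, and MMP9 of bull 1 was at 2.605 CPM (15 reads) against 0 to 0.3313.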

How the results depend on the processing

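Of 1585 values of single members recomputed under the alternatives, 1545 kept their direction and their side of the threshold or had not been called, 11 lost a call, 29 gained one and 0 called values changed direction. Among values not called, 87 changed sign. For sex in fat, leaving out each animal gave 0 to 1 members called, and in muscle 1 to 3, with 3 without cow 4. In muscle 0 were called after the filter on low counts, because MMP12 was not tested. Over the 4 tissues leaving out each animal gave 1 to 2 (2 without cow 4 or bull 5, when MMP9 passed). The limma fit with the animal as a block gave 0. The block fits changed no other member's call. By adjusted p alone, 7 members were called for liver against pituitary-gland (65.4% of all genes), and with library sizes alone 3 were called for muscle against pituitary-gland. Over all genes the calls depended more on the test. The quasi-likelihood test called 1 liver gene (23 in the likelihood ratio test), 3 fat genes (15), 7 muscle genes (68) and 12 pituitary-gland genes (98). It called 77 against 222 over the 4 tissues and 0 against 44 for the interaction, where 922 had an unadjusted p under 0.05. DESeq2 called 28 in fat, the low-count filter 13 in liver and 6 in fat, and library sizes alone 56 in the pituitary-gland and 717 over the 4 tissues. With the limma block 8 genes were called over the 4 tissues and 13 for the interaction. Without the fat library of bull 5 the interaction called 74. In liver 61 genes were called without bull 3 and 187 without cow 4, and in muscle 553 without cow 4. Depth limits MMP9 outside fat and MMP12 in liver, in the pituitary-gland and in the muscle of cows, where most libraries were at the floor of 3 reads.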
